A study of Mus musculus with 3 samples.

Results

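The 9 genes described here are the mitochondrially encoded genes of complex I and of ATP synthase. They comprise the 7 complex I genes mt-Nd1, mt-Nd2, mt-Nd3, mt-Nd4l, mt-Nd4, mt-Nd5 and mt-Nd6, and the 2 ATP synthase genes mt-Atp8 and mt-Atp6. They were chosen by symbol from the 32285 genes of the matrices, and all 9 were found. The choice was made from measured values, because these genes differed between libraries in unlike ways although 1 genome carries them. The values below are therefore a description with no test.

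The study took brains of mice on day 4 after a sham procedure or induction of neuromyelitis optica spectrum disorder (NMOSD), in which autoantibodies injure the brain, spinal cord and optic nerve, and sorted CD45int CD11b+ cells by flow cytometry. The 3 groups were NMOSD with the peptide APOE130-149, NMOSD with a control peptide, and sham with phosphate-buffered saline (PBS), and all 3 groups were APOE knockout mice. Each group is 1 library of droplet-based single-cell RNA sequencing, and 4 mice were pooled for it, so there is no replicate of any value and single mice cannot be told apart. The sources used here give neither the strain, the age nor the knocked-out allele.

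The libraries held 2175 barcodes with APOE130-149, 5306 with the control peptide and 4674 in sham, with 32060750, 61469677 and 32712199 unique molecular identifiers (UMIs, each counting 1 captured RNA molecule) in the same order. Cells were gated by the number of marker genes detected. The microglia gate held 1659, 4312 and 3864 cells, with median depths of 9482, 7503 and 7103 UMIs. The other gates were small, with 77, 161 and 60 cells for border-associated macrophages, 76, 141 and 95 for neutrophils, and 38, 77 and 40 for monocytes. All 10 microglia markers had UMIs in every gated class. P2ry12, a purinergic receptor that marks microglia, had 2131, 1946 and 1506 counts per 1000000 UMIs (CPM) in the macrophage gate, against 2699, 2463 and 2636 CPM in the microglia gate, so cells of that gate carried microglial RNA along with their own markers. The macrophage marker Mrc1 had 595, 495 and 780 CPM there and 13.9, 13.8 and 13.4 CPM in the microglia gate. The 10 microglia markers summed to 21702, 20849 and 17158 CPM in the macrophage gate, 17375, 13935 and 6963 CPM in the neutrophil gate, 7581, 11676 and 3335 CPM in the monocyte gate, and 26175, 25273 and 24223 CPM in the microglia gate. Doublets were not removed, and the part of doublets or free RNA in these levels and in the values of the small gates was not tested. The libraries shared at most 9 barcodes, between the control peptide and sham libraries. Apoe had 109, 98.0 and 79.0 CPM in gated microglia, and since the allele is not given, these tags check nothing about the knockout.

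Complex I takes electrons from NADH into the respiratory chain and pumps protons, and ATP synthase uses the proton gradient to make ATP. Both are built from many nuclear subunits and a few that mitochondria encode themselves. Mitochondrial DNA is transcribed as long RNAs from each strand that are cut into single mRNAs, largely at the transfer RNAs between them, so the amounts of neighbouring mRNAs depend on cutting and decay as well as on transcription. mt-Nd6 is the only one of these 9 genes on the light strand, and its human counterpart is known to lack a poly(A) tail. In mammals mt-Atp8 and mt-Atp6 are read from 1 shared mRNA, and so are mt-Nd4l and mt-Nd4. Microglia, the resident macrophages of the brain, rely on oxidative phosphorylation at rest.

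In the GRCm38 build (the assembly also called mm10) all 9 genes are single exons of the mitochondrial chromosome M, as annotated by GENCODE. mt-Nd1 lies at 2751 to 3707, mt-Nd2 at 3914 to 4951, mt-Atp8 at 7766 to 7969, mt-Atp6 at 7927 to 8607, mt-Nd3 at 9459 to 9806, mt-Nd4l at 9877 to 10173, mt-Nd4 at 10167 to 11544 and mt-Nd5 at 11742 to 13565 on the plus strand. mt-Nd6 lies at 13552 to 14070 on the minus strand. The genes overlap at 3 places among themselves, shown here because a read over an overlap cannot be given to 1 gene by position alone. The overlapping bases are in capitals. mt-Atp8 ends inside the start of mt-Atp6, over 43 bases:
mt-Atp8, end of the frame, chrM:7910-7969, plus strand: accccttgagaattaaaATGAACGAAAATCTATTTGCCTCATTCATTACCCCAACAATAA
mt-Atp6, start of the frame, chrM:7927-7986, plus strand: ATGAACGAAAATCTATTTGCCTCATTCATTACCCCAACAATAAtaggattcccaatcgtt
mt-Nd4l and mt-Nd4 overlap by 7 bases in the same way:
mt-Nd4l, end of the frame, chrM:10144-10173, plus strand: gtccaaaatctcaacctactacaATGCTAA
mt-Nd4, start of the frame, chrM:10167-10196, plus strand: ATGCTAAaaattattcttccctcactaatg
mt-Nd5 and mt-Nd6 meet tail to tail on opposite strands, over 14 bases:
mt-Nd5, end of the frame, chrM:13536-13565, plus strand: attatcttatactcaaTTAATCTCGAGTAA
mt-Nd6, end of the frame, chrM:13552-13581, minus strand: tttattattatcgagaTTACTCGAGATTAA

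Capture of transcript 3′ ends primes on runs of A, and the coding sequences differ in how many A they hold. mt-Atp8 had 40.7% A, the highest of the 9, and mt-Nd6 had 22.2%, the lowest. By the longest run of A, mt-Atp8 was not the highest. That run was 8 bases in mt-Nd2, 7 in mt-Nd4 and mt-Nd5, 6 in mt-Nd1, 5 in mt-Atp8 and 3 in mt-Nd6. The 20 bases richest in A held 14 A in mt-Atp8, as in mt-Nd2, and 8 A in mt-Nd6. The longest run within these 20 bases is in capitals below for mt-Atp8 and mt-Nd6:
mt-Atp8, chrM:7891-7910, plus strand: aacaaccataaaagtAAAAA
mt-Nd6, chrM:13830-13849, minus strand: tactgaggAAtatccagaga
Where along each mRNA its tags lay is not given in the count tables. Among annotated nuclear transcripts, copies were found for 7 of the 9 genes, and only the longest match of each gene was read. These longest matches had 92.4% to 100% identity, and none of them was a feature of the matrices. Whether other matches were features was not checked. Gm10222 matched mt-Nd4l and Gm10925 matched mt-Atp6 at 100% identity over nearly the whole gene, and Gm28438 matched mt-Nd3 at 99.7%. Gm28439 matched mt-Nd4 at 100% over 63.6% of the gene. No such transcript was found for mt-Nd1 or mt-Atp8, but a search of annotated transcripts alone cannot show that either lacks a copy. mt-Atp8 also shares 43 bases with mt-Atp6, which Gm10925 matched over nearly the whole gene. How reads shared with nuclear copies were counted is not given in the sources used here. The levels of the genes with copies carry that uncertainty, and those of mt-Nd1 and mt-Atp8 are not shown to be free of it.

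In gated microglia the 9 genes together took 10108 CPM with APOE130-149, 11605 CPM with the control peptide and 9376 CPM in sham. The 13 mitochondrially encoded mRNAs took 2.43%, 2.75% and 2.24% of all UMIs in the same order. The 9 genes made up a nearly even portion of those mRNAs, at 41.5%, 42.1% and 41.9%. All intervals are 95% intervals. They are exact Poisson intervals for levels, exact binomial for shares and exact conditional for ratios, and they cover counting error, not differences between animals or library preparations.

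mt-Atp6, the proton channel subunit of ATP synthase, had 3504 CPM with APOE130-149, 4384 CPM with the control peptide and 3552 CPM in sham. It was the most abundant of the 9 per length as well, at 5146, 6438 and 5215 CPM per kilobase. mt-Atp8, a small membrane subunit of the same enzyme, had 22.3 CPM with APOE130-149, 33.4 CPM with the control peptide and 59.6 CPM in sham. Per length it had 109, 163 and 292 CPM per kilobase, far below mt-Atp6, with which it shares an mRNA. Levels per length are only a rough guide here, since tags of 3′ capture do not spread along a transcript.

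Of the complex I subunits, all membrane-embedded, 3 were of like abundance. mt-Nd1 had 2217 CPM with APOE130-149, 2396 CPM with the control peptide and 1485 CPM in sham. mt-Nd4 had 1911, 2074 and 1819 CPM, and mt-Nd2 had 1605, 1779 and 1371 CPM, in the same order. These 3 genes were lowest in the sham library. mt-Nd3 had 582 CPM with APOE130-149, 556 CPM with the control peptide and 646 CPM in sham. mt-Nd5 had 196, 292 and 317 CPM, and mt-Nd4l had 54.6, 77.0 and 105 CPM. These 3 were highest in the sham library. mt-Nd6 was the lowest of all, at 16.4 CPM with APOE130-149, 15.02 CPM with the control peptide and 23.3 CPM in sham. The intervals of mt-Nd6 with APOE130-149 (14.7 to 18.3 CPM) and with the control peptide (13.9 to 16.2 CPM) overlapped, while that of sham (21.5 to 25.1 CPM) lay above both.

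Per length, the order with the control peptide was mt-Atp6, mt-Nd1 (2503 CPM per kilobase), mt-Nd2 (1714), mt-Nd3 (1597), mt-Nd4 (1505), mt-Nd4l (259), mt-Atp8 (163), mt-Nd5 (160) and mt-Nd6 (28.9). mt-Atp8 and mt-Nd5 are neighbours that did not differ beyond counting error in that library. In sham mt-Nd3 stood second at 1855 CPM per kilobase, above mt-Nd1 at 1551 CPM per kilobase.

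**Figure D1:**
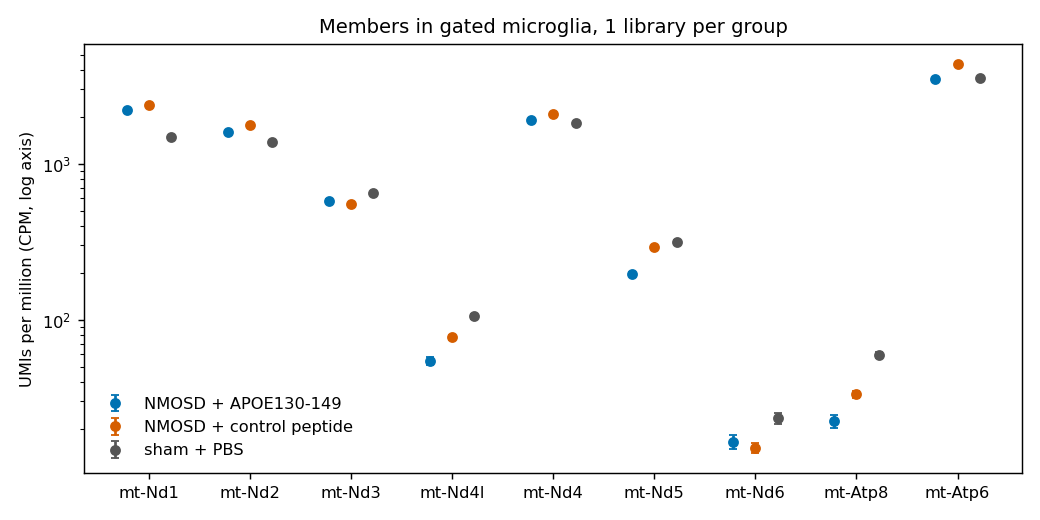
Level of each gene in gated microglia (CPM, log axis) in the 3 libraries, with points for the summed level and bars for the exact 95% Poisson interval. mt-Atp8, mt-Nd4l and mt-Nd5 step up from APOE130-149 over the control peptide to sham (22.3, 33.4 and 59.6 CPM for mt-Atp8), while mt-Nd1 is lowest in sham at 1485 CPM.

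The control peptide library differed from sham in the induction of NMOSD and in the peptide given in place of PBS, and the parts of these cannot be told apart. The level of mt-Nd1, the subunit at the entrance of the ubiquinone channel, was 1.61-fold that of sham (interval 1.60 to 1.63). The levels of mt-Nd2 and mt-Atp6 were 1.30-fold and 1.23-fold those of sham, close to the 1.23-fold of all 13 mRNAs together. mt-Atp8 was 1.79-fold lower (1.66 to 1.92) and mt-Nd6 1.55-fold lower (1.39 to 1.73). mt-Nd4l was 1.36-fold lower, mt-Nd3 1.16-fold lower and mt-Nd5 1.09-fold lower, and mt-Nd4 was 1.14-fold higher. mt-Nd1 and mt-Atp8 thus differed in opposite directions, each by more than counting error. RNA of marker genes of other cell types in gated microglia differed between the same libraries. The 5 choroid plexus markers summed to 75.3 CPM with APOE130-149, 107 CPM with the control peptide and 1.12 CPM in sham (Clic6 at 0 in sham), most of it Ttr, the transthyretin gene, at 70.0, 103 and 0.840 CPM. The 4 erythroid markers summed to 8.51, 26.5 and 0.525 CPM (Alas2 at 0 in sham), and the 5 B cell markers to 55.4, 59.2 and 284 CPM, with Ms4a1 at 0 in each library. In the macrophage gate with the control peptide the B cell markers summed to 52.2 CPM with Cd79a, Ms4a1 and Igkc at 0. Their sum was not broken down by gene and is not read as RNA of B cells. The part of such RNA in the ratios of the 9 genes was not tested.

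With a difference of at least 1.5-fold as the line, 1 of 9 genes (mt-Nd1) was higher with the control peptide and 2 of 9 (mt-Nd6 and mt-Atp8) were lower. Among the 8491 genes with at least 10 CPM in either library, 1.46% were that much higher and 0.930% that much lower. Because the values of this comparison helped to choose the genes, nothing is read from these counts. The median log2 ratio of the 9 genes was -0.12, beside -0.08 over all genes.

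Set against the 13 mRNAs alone, mt-Nd1 was 1.31-fold higher with the control peptide and mt-Atp6 had a ratio of 1.004. On that scale mt-Atp8 was 2.20-fold lower, mt-Nd6 1.90-fold lower, mt-Nd4l 1.68-fold lower, mt-Nd3 1.43-fold lower and mt-Nd5 1.33-fold lower. The only gene whose direction differed between the scales was mt-Nd4, 1.14-fold higher by all UMIs and 1.08-fold lower by mitochondrial mRNA. mt-Nd5, which was 1.09-fold lower in the summed counts, had a ratio of 1.07 when each cell's own CPM was averaged.

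The comparison of APOE130-149 with the control peptide, both in NMOSD, sets 2 libraries side by side that differed in the peptide given and in their preparation. No gene of the 9 reached 1.5-fold in either direction, in a comparison where 0.465% of 8384 genes were that much higher and 0.0954% that much lower. Both mt-Nd5 and mt-Atp8 came close. The level of mt-Nd5, a proton-pumping subunit, was 1.49-fold lower with APOE130-149 (1.44 to 1.54), and that of mt-Atp8 had a ratio of 0.668 (0.600 to 0.743), just inside the line. mt-Nd4l was 1.41-fold lower and mt-Atp6 1.25-fold lower. mt-Nd2, mt-Nd4 and mt-Nd1 were 1.11-fold, 1.08-fold and 1.08-fold lower, against 1.13-fold lower for the 13 mRNAs together, and by mitochondrial mRNA these 3 were 1.02-fold to 1.05-fold higher. mt-Nd3 was 1.05-fold higher. mt-Nd6 had a ratio of 1.09 with an interval from 0.956 to 1.25, and of 0.991 over all barcodes without a gate. By mitochondrial mRNA its ratio was 1.24 (1.08 to 1.41), and it was above 1 in 6 of 6 classes of cell depth (1.16 to 1.83). The classes below 5000 UMIs held only 1, 9 and 10 mt-Nd6 UMIs with APOE130-149. By all UMIs its ratio was above 1 in 4 of 6 classes. Over all barcodes, by mitochondrial mRNA, it was above 1 in 4 of 6 (0.923 to 1.23). The median log2 ratio of the 9 genes was -0.15, beside 0.01 over all genes.

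APOE130-149 against sham gave the widest spread. mt-Atp8 was 2.67-fold lower (2.41 to 2.97), mt-Nd4l 1.92-fold lower (1.79 to 2.06), mt-Nd5 1.62-fold lower (1.56 to 1.68) and mt-Nd6 1.42-fold lower (1.24 to 1.62). mt-Nd1 was 1.49-fold higher (1.47 to 1.51) and mt-Nd2 1.17-fold higher. mt-Nd4 and mt-Atp6 had ratios of 1.05 and 0.987, whose direction depended on the setting. Scaled to mitochondrial mRNA mt-Nd4 had a ratio of 0.967, and with median-of-ratios scaling mt-Atp6 had a ratio of 1.02. So 0 of 9 genes were at least 1.5-fold higher, where 1.56% of 8504 genes were, and 3 of 9 were lower, where 0.894% were. The median log2 ratio was -0.15, beside -0.06 over all genes. The 3 comparisons share their libraries in pairs, so their values are not independent of each other.

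**Figure D2:**
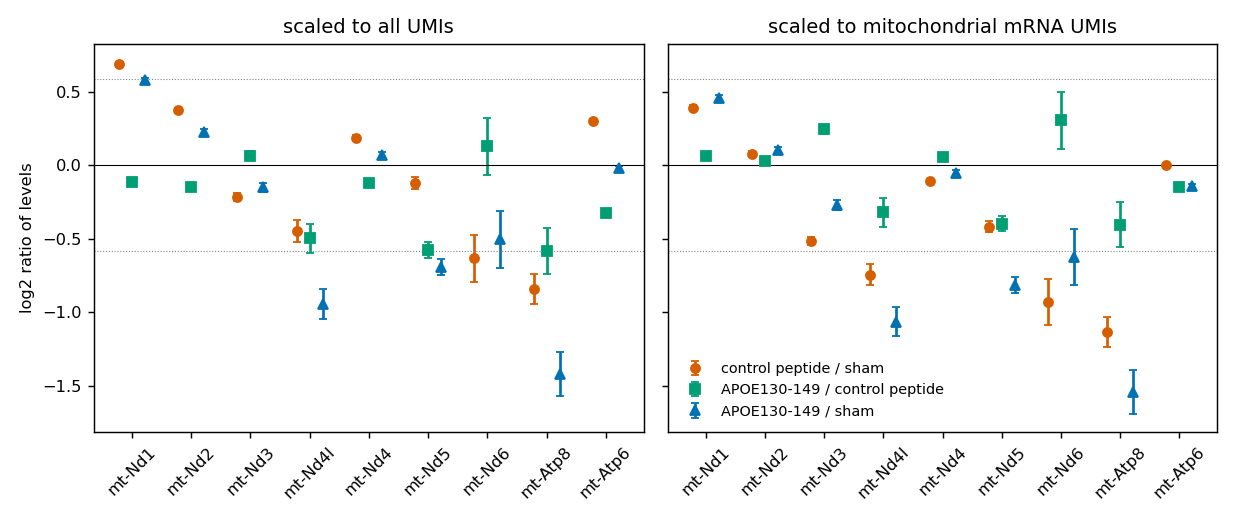
Log2 ratio of each gene between libraries in gated microglia, scaled to all UMIs (left) and to the UMIs of the 13 mitochondrially encoded mRNAs (right), with exact 95% conditional intervals and dotted lines at 1.5-fold. On both scales mt-Nd1 lies above 0 and mt-Nd4l, mt-Nd5, mt-Nd6 and mt-Atp8 below 0 in both comparisons with sham.

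Genes of an overlapping pair differed between libraries in unlike ways. In microglia there were 6.36 mt-Atp8 UMIs for every 1000 of mt-Atp6 with APOE130-149 (5.79 to 6.98), 7.61 with the control peptide (7.22 to 8.01) and 16.8 in sham (16.0 to 17.6). Both NMOSD values lay below the sham value in every gated class as well, though the other gates also carried microglial RNA. Among border-associated macrophages they were 5.27 with APOE130-149 and 5.82 with the control peptide, against 15.4 in sham. There were 28.5 mt-Nd4l UMIs for every 1000 of mt-Nd4 with APOE130-149 (26.9 to 30.3), 37.1 with the control peptide (35.8 to 38.4) and 57.7 in sham (55.6 to 59.8). For mt-Nd6 per 1000 of mt-Nd5, which lie on opposite strands, the order differed, with 83.9 (74.8 to 93.8), 51.5 (47.5 to 55.7) and 73.5 (67.8 to 79.5), and the intervals of APOE130-149 and sham overlapped. mt-Nd3 per 1000 of mt-Nd1 stood at 262, 232 and 435 in microglia.

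For several genes the share of mitochondrial mRNA separated sham from both NMOSD libraries in every gated class. The other gates also held microglial RNA, so the 4 classes are not independent readings. In the macrophage gate the 10 microglia markers summed to 21702 CPM with APOE130-149, 20849 CPM with the control peptide and 17158 CPM in sham. In the microglia gate they summed to 26175, 25273 and 24223 CPM. mt-Nd1 made up 7.50% to 9.11% of the 13 mRNAs over the 4 gated classes with APOE130-149, 7.68% to 8.70% with the control peptide and 4.28% to 6.63% in sham, so the sham range did not overlap the others. mt-Atp8 made up 0.0561% to 0.0916% with APOE130-149, 0.0948% to 0.121% with the control peptide and 0.238% to 0.334% in sham, again with no overlap between the NMOSD libraries and sham. mt-Nd5 made up 0.703% to 0.849%, 0.948% to 1.06% and 1.16% to 1.41%, and these 3 ranges did not overlap. Within monocytes, though, the mt-Nd5 intervals overlapped between all 3 libraries. They were 0.718% to 0.996% with APOE130-149, 0.868% to 1.03% with the control peptide and 0.970% to 1.37% in sham. In neutrophils those of the control peptide (0.903% to 1.104%) and sham (1.099% to 1.63%) touched. The shares of mt-Nd4l and mt-Nd6 were also above both NMOSD libraries in sham in all 4 classes. For mt-Nd4l in monocytes the intervals overlapped, at 0.218% (0.154% to 0.299%) with APOE130-149, 0.180% (0.145% to 0.219%) with the control peptide and 0.240% (0.159% to 0.346%) in sham. In neutrophils the mt-Nd4l intervals of the control peptide (0.164% to 0.257%) and sham (0.224% to 0.503%) overlapped too. For mt-Nd6 outside microglia the classes held only 5 to 70 UMIs each, and intervals overlapped too.

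Of the 4 other mitochondrially encoded mRNAs, mt-Cytb, of complex III, went with mt-Nd1. Its share was lower in sham than in both NMOSD libraries in 4 of 4 classes, and in microglia it was 14.1% with APOE130-149, 13.5% with the control peptide and 11.6% in sham. mt-Co1, of complex IV, was higher in sham in 4 of 4 classes, at 13.5%, 12.7% and 16.3% in microglia. mt-Atp6 was higher in sham than in both NMOSD libraries in 3 of 4 classes, though by little against the control peptide.

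**Figure D3:**
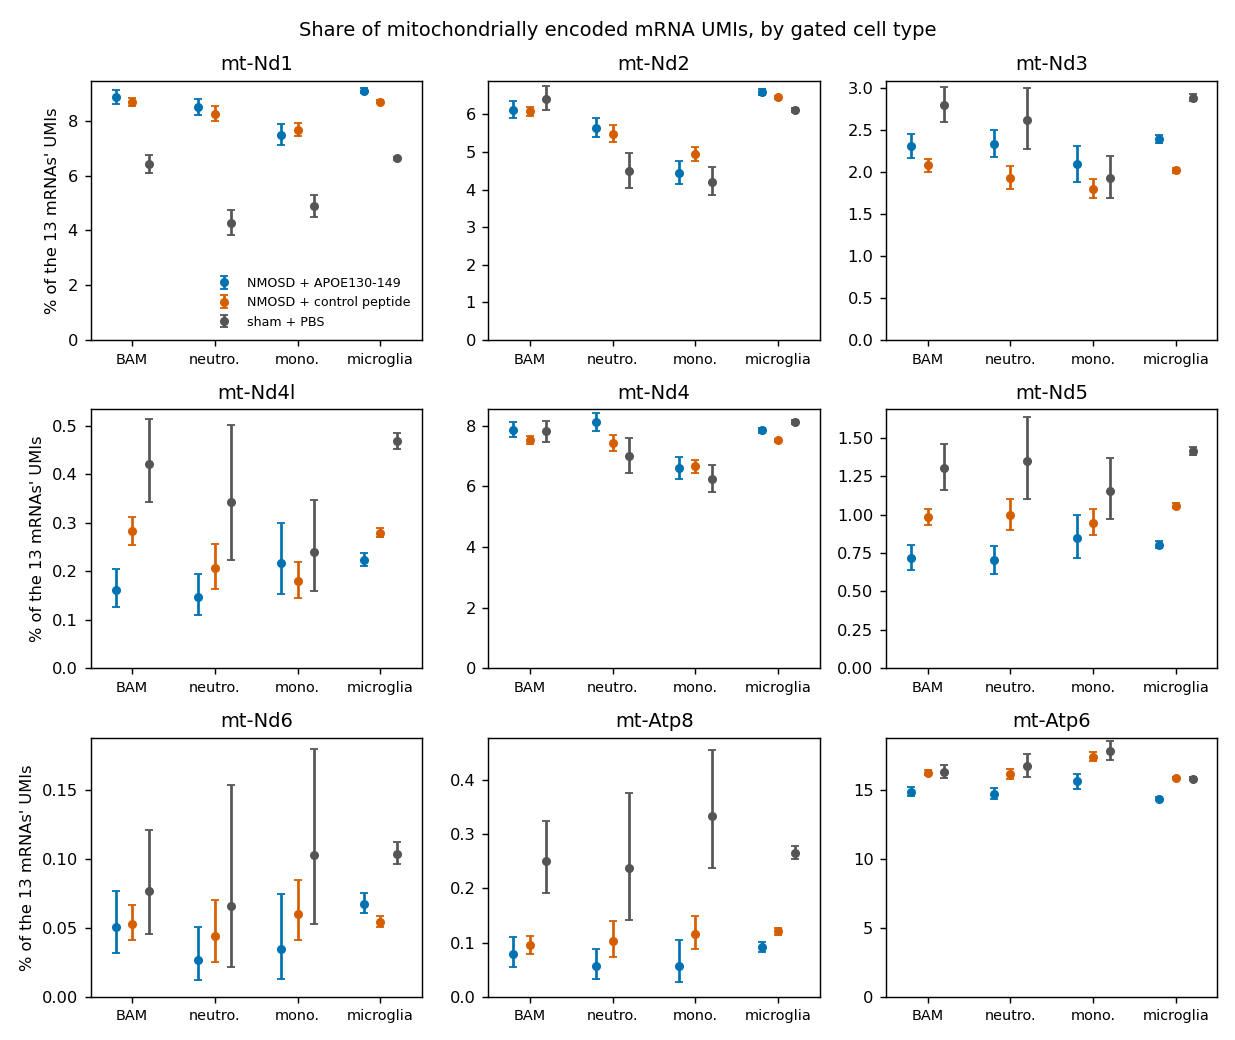
Share of each gene among the UMIs of the 13 mitochondrially encoded mRNAs (percent, axes from 0) in border-associated macrophages (BAM), neutrophils, monocytes and microglia of the 3 libraries, with exact 95% binomial intervals. The sham points of mt-Atp8 (0.238% to 0.334%) stand above, and those of mt-Nd1 (4.28% to 6.63%) below, the points of both NMOSD libraries in all 4 classes. The gates other than microglia also carried microglial RNA, so the classes are not independent readings.

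The summed level of the 9 genes differed between gated classes, and in each library it was lowest in the neutrophil gate. The 9 genes had 7464 CPM in neutrophils against 10108 CPM in microglia with APOE130-149, 7680 against 11605 CPM with the control peptide, and 4216 against 9376 CPM in sham. These are ratios of 0.738, 0.662 and 0.450. Neutrophils are short-lived granulocytes with few mitochondria, and most gated ones carried microglia markers, with 1766, 1328 and 753 CPM of P2ry12. In the 15, 29 and 19 gated neutrophils with at most 3 of the 10 microglia markers detected, P2ry12 was at 44.1, 17.1 and 27.8 CPM and the 9 genes at 1378, 1845 and 1736 CPM. These are ratios to microglia of 0.136, 0.159 and 0.185, so the level was further below microglia in each library without the cells that carried more microglial markers. P2ry12 is 1 of the 10 markers, so its low level there follows from how the cells were picked. Depth was not matched in this reading. The median neutrophil had 0.463%, 0.657% and 0.825% of its UMIs in the 13 mRNAs, against 2.06%, 2.32% and 1.62% for the median microglial cell.

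The macrophage gate had 8571 CPM of the 9 genes with APOE130-149, 12117 CPM with the control peptide and 9109 CPM in sham, which are ratios to microglia of 0.848, 1.04 and 0.971. These cells also held P2ry12 at the levels given above, so they are not a clean reading of border-associated macrophages. Monocytes, recruited from blood, had ratios of 0.873, 0.955 and 0.828. In monocytes mt-Nd2, a membrane subunit of complex I, was lower than in microglia in all 3 libraries, with ratios of 0.654, 0.772 and 0.645. mt-Atp6 in monocytes had ratios of 1.05, 1.11 and 1.06. The 6, 14 and 14 monocytes with at most 3 microglia markers had ratios of 1.07, 0.622 and 0.927 for the 9 genes, which went in no common direction.

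Depth differed between libraries, so gated microglia were also read in 6 classes of depth, from 500 UMIs upward. In sham, 903 of 3864 gated microglia lay below 2000 UMIs, against 127 of 1659 with APOE130-149 and 297 of 4312 with the control peptide. The level of the 13 mRNAs changed with depth in unlike ways. In cells of 1000 to under 2000 UMIs they took 3.95% of UMIs with APOE130-149, 5.26% with the control peptide and 1.78% in sham. In cells of 20000 UMIs or more they took 2.73%, 3.15% and 2.92%. The NMOSD libraries were thus above sham in the shallow class, and in the deepest class APOE130-149 was below it.

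Within classes of depth, the makeup of each NMOSD library was set against sham. The share of mt-Nd1 among the 13 mRNAs was higher with the control peptide than in sham in 6 of 6 classes, by 1.25-fold to 1.37-fold, and higher with APOE130-149 than in sham in 6 of 6, by 1.06-fold to 1.37-fold. The share of mt-Atp8 was lower with the control peptide than in sham in 6 of 6 classes, with ratios from 0.400 to 0.703, and lower with APOE130-149 in 4 of 6. The exceptions were the classes below 2000 UMIs, which held 4 and 13 mt-Atp8 UMIs with APOE130-149. Between APOE130-149 and the control peptide the order was not the same in all classes. The ratio of shares was below 1 in only 3 of 6 classes for mt-Atp8 (0.599 to 3.71). The same held for mt-Nd4l (0.770 to 1.52) and mt-Nd1 (0.810 to 1.09), and mt-Nd5 was below 1 in 4 of 6. The classes below 5000 UMIs held only 4, 13 and 19 mt-Atp8 UMIs with APOE130-149, and 4, 22 and 56 with the control peptide. From 5000 UMIs upward mt-Atp8 per 1000 of mt-Atp6 was 5.82, 5.78 and 6.41 with APOE130-149. With the control peptide it was 8.50, 7.47 and 6.90, with intervals that overlapped from 10000 UMIs upward. mt-Nd3 had a smaller share in both NMOSD libraries than in sham in 6 of 6 classes. In cells of 5000 to under 10000 UMIs mt-Nd5 made up 0.791% with APOE130-149 (0.737% to 0.848%), 1.11% with the control peptide (1.08% to 1.14%) and 1.46% in sham (1.41% to 1.502%). Below 2000 UMIs its intervals overlapped between all 3 libraries.

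**Figure D4:**
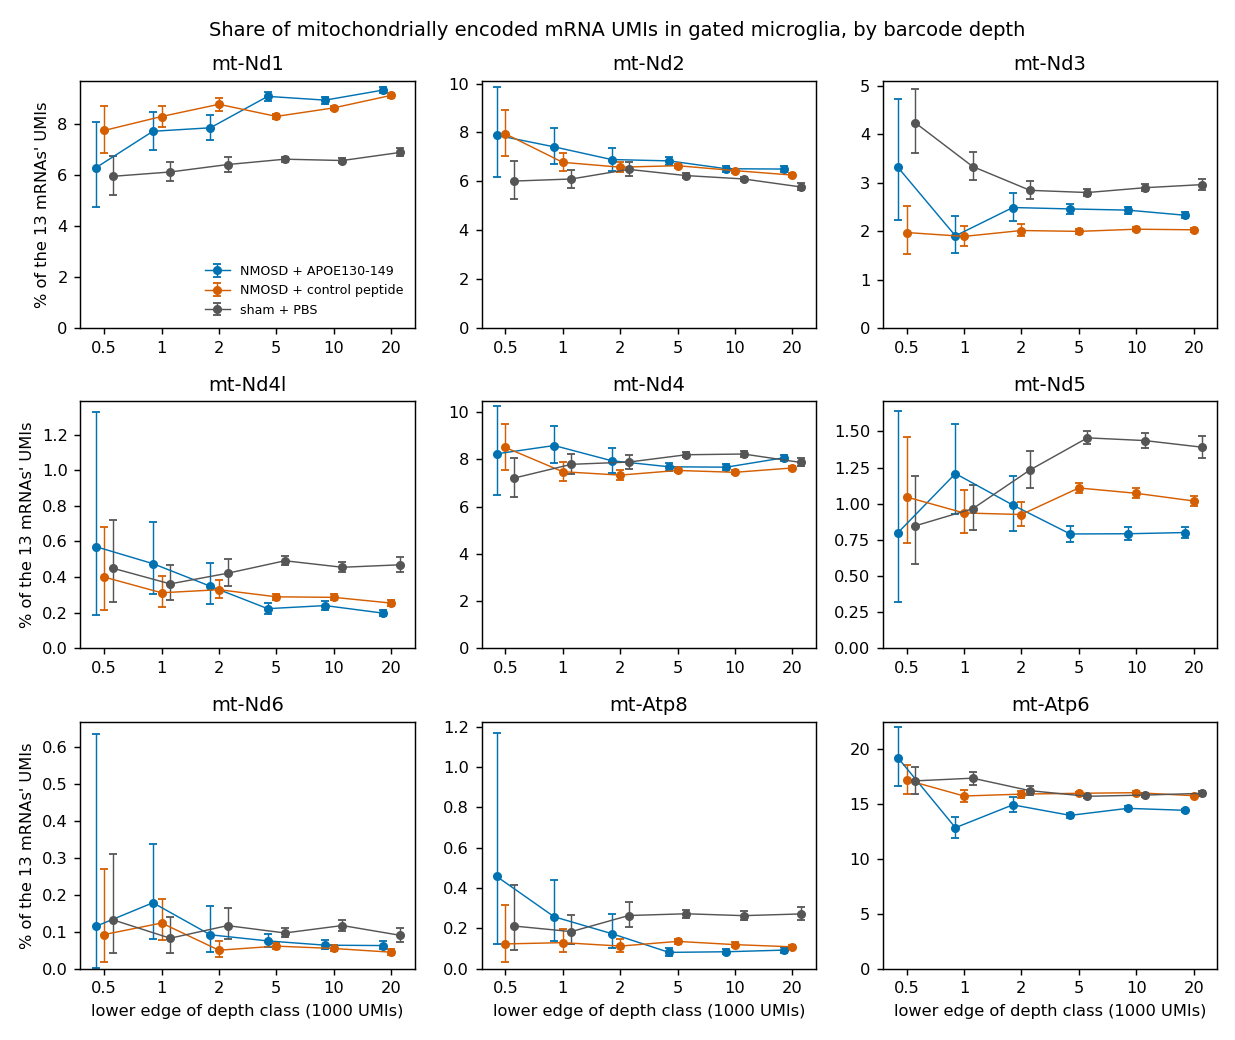
Share of each gene among the UMIs of the 13 mitochondrially encoded mRNAs (percent, axes from 0) in gated microglia, by depth class of the cell (lower edge in units of 1000 UMIs), with exact 95% binomial intervals. From 5000 UMIs upward the libraries keep their order for mt-Nd5 (1.46%, 1.44% and 1.39% in sham) and mt-Atp8, and intervals are wide in the shallowest classes.

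Microglia were also classed by the portion of their UMIs that was mitochondrial. Over 6 classes, from under 1% to 10% or more, the share of mt-Nd1 among the 13 mRNAs was 8.51% to 10.1% with APOE130-149, 8.40% to 8.99% with the control peptide and 6.36% to 6.75% in sham. The share of mt-Atp8 was 0.0709% to 0.147%, 0.110% to 0.149% and 0.229% to 0.279%. For both genes the sham range overlapped neither NMOSD range. The 10% or more class was small, with 19, 63 and 37 cells.

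Detection was also read per cell. When gated microglia with at least 2000 UMIs were thinned to 2000 UMIs each, which left 1532, 4015 and 2961 cells, mt-Atp8 was detected in 3.72% of cells with APOE130-149 (2.83% to 4.79%), 6.58% with the control peptide (5.83% to 7.39%) and 10.1% in sham (9.0% to 11.2%). Without thinning it was detected in 19.8%, 22.8% and 26.9% of all gated microglia. mt-Nd5 was detected after thinning in 27.8%, 37.0% and 41.3% of cells and before it in 65.0%, 72.1% and 61.7%, so the order depended on depth. mt-Nd6 was detected in 2.35%, 2.54% and 4.73% after thinning and in 16.0%, 12.5% and 13.5% before it. mt-Atp6 was found in 87.3%, 93.9% and 92.8% of thinned cells. mt-Nd4 was found in 81.9%, 87.9% and 86.7% and mt-Nd2 in 79.0%, 85.3% and 81.2%, lowest with APOE130-149, whereas their summed levels were lowest in sham, so no order is read from these shares. No gated class lacks mitochondria, so no background level from free RNA could be set. The 1% of microglia with most mt-Nd1 UMIs held 11.2% of them with APOE130-149, 10.2% with the control peptide and 9.33% in sham. For mt-Nd6 these shares were 12.5%, 17.8% and 17.4%, and for mt-Atp8 they were 16.4%, 14.4% and 14.2%. The highest mt-Nd1 count in 1 cell was 977, 791 and 199 UMIs in the same order.

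The nuclear genes that work with these 9 were read from lists of known members. Of 37 nuclear complex I genes, 0 were at least 1.5-fold higher or lower in any of the 3 comparisons. The same held for 12 measured complex I assembly genes and for 19 or 20 measured nuclear ATP synthase genes. It also held for 23 or 24 measured factors of mitochondrial transcription, RNA processing and translation. That last list, called RNA factors below, also holds the DNA helicase gene Twnk. At background shares of 0.0954% to 1.56%, counts of 0 in lists of this size are near the background. With the control peptide against sham, the median log2 ratio was 0.08 for nuclear complex I, -0.04 for the assembly genes, 0.07 for nuclear ATP synthase and -0.10 for the RNA factors, beside -0.08 over all genes. The highest complex I gene was the accessory subunit Ndufb8, with 138 CPM with the control peptide and 112 CPM in sham, and the lowest was Ndufa3, with 94.1 and 125 CPM. Among ATP synthase genes Atp5c1, the gamma subunit of the rotor, was highest, with 221 and 183 CPM, and Atp5k, a membrane subunit, was lowest, with 77.1 and 111 CPM. Foxred1 (21.2 and 17.7 CPM) and Timmdc1 (8.58 and 11.7 CPM) were the highest and lowest assembly genes. Hsd17b10, a subunit of the mitochondrial RNase P that cuts transfer RNAs free, was the highest RNA factor, with 38.5 and 32.9 CPM, and Pnpt1, a nuclease that degrades mitochondrial RNA, was the lowest, with 12.9 and 17.2 CPM.

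With APOE130-149 against the control peptide, the medians were -0.05, -0.01, -0.03 and 0.02 for the same 4 lists, beside 0.01 over all genes. Ndufa3 was then the highest complex I gene, with 120 and 94.1 CPM, and Ndufa11 the lowest, with 62.8 and 72.3 CPM. Atp5k was the highest and Atp5c1 the lowest ATP synthase gene, with 93.9 and 77.1 CPM and with 193 and 221 CPM. Timmdc1 (11.1 and 8.58 CPM) and Ecsit (10.8 and 12.7 CPM) bounded the assembly genes, and the elongation factor genes Tufm (24.6 and 19.7 CPM) and Tsfm (18.0 and 20.2 CPM) bounded the RNA factors. With APOE130-149 against sham, the medians were 0.02, -0.03, 0.02 and -0.08, beside -0.06 over all genes, and the extremes over the 4 lists were Ndufs8, a complex I core subunit, with 91.7 CPM with APOE130-149 and 73.0 CPM in sham, and Twnk, the mitochondrial DNA helicase, with 15.4 and 19.3 CPM.

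Likeness of pattern was measured as Pearson's r of log2 CPM over the 12 sums of 4 gated classes in 3 libraries, among genes with at least 10 UMIs in each sum. The 12 points share 3 libraries and their depths, so r is only descriptive. The 5 genes most like mt-Nd1, out of 4943, were Gnl3 (0.986), mt-Cytb (0.974), Srsf2 (0.948), mt-Nd4 (0.947) and Mcrip1 (0.944). With mt-Atp8 mt-Nd1 had an r of -0.21. Among genes with at least 10 UMIs in each sum, those most like mt-Atp8 were Pibf1 (0.890), Zfc3h1 (0.811), Atad2b (0.802), Smim15 (0.795) and AY036118 (0.794). Among the 9 genes, mt-Atp8 was nearest to mt-Nd6 (0.852), mt-Nd5 (0.762) and mt-Nd4l (0.702), and its r with mt-Atp6 was 0.302. mt-Nd6 itself did not reach 10 UMIs in each sum, so it was not ranked among the genes most like mt-Atp8. The genes most like mt-Nd6 were Vps35 (0.926), Zranb2 (0.907), Prrc2c (0.90), Rpl7l1 (0.893) and Aebp2 (0.884), where mt-Nd6 rested on as few as 5 UMIs in a sum.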

How the data were processed

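The deposited values are raw UMI counts in whole numbers, with no normalization, for each gene in each barcode, per the file headers. Cell Ranger 5.0.1 and Seurat 4.3.0 with mm10 are named in the submitters' processing notes, while the file headers name cellranger 7.0.1. Whether introns and strand were used in counting is not given in the sources used here, and barcodes had at least 500 UMIs. Barcodes with at least 500 genes were kept, with no cap on mitochondrial UMIs, since a cap would select on these genes. Gates asked for at least 5 of 10 markers (border-associated macrophages), 7 of 12 (neutrophils), 5 of 10 (monocytes) or 6 of 10 (microglia, with each other gate at least 2 markers short), and fewer than 3 markers of any of 8 further types. These thresholds were set with the data in view, and the 9 genes and all lists were chosen with earlier results of these data known. UMIs were summed per library and gate with numpy 2.4.6, scipy 1.17.1 and pandas 2.3.3 (Python 3.11.15). The computation of ratios was tested on simulated data. Named genes were the 9, the 4 other mitochondrially encoded mRNAs where set against them, the extremes of each nuclear list, and the 5 most like mt-Nd1, mt-Nd6 and mt-Atp8. Nuclear copies were sought with blastn 2.17.0 (e-value 1e-20) in GENCODE M21 transcripts, which also gave the sequences. Alternatives were other scalings, mean over cells, depth windows, mitochondrial caps of 10% and 5%, a stricter gate, no gate and removal of deep cells.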

Additional observations from a re-analysis of the deposited data

How the results depend on the processing

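No paired analysis was possible because each group is 1 library. In gated microglia the count of genes at least 1.5-fold higher with the control peptide than in sham was 1, and it was 0 when scaled to mitochondrial mRNA. The count lower, 2, was 1 with median-of-ratios scaling and without cells above 2 times the median UMIs, 0 with the mean over cells, and 3 (mt-Nd4l added) when scaled to mitochondrial mRNA. For APOE130-149 against the control peptide, the count lower, 0, was 2 (mt-Nd5 and mt-Atp8) with a 10% mitochondrial cap, median-of-ratios scaling, cells of 5000 to 20000 UMIs, or without deep cells, and 1 with a 5% cap, scaling to other genes, cells of at least 1000 genes, or a stricter gate. For APOE130-149 against sham, the count higher, 0, was 1 (mt-Nd1) with median-of-ratios scaling and with the mean over cells, and the count lower, 3, was 1 (mt-Atp8) with the mean over cells and 4 (mt-Nd6 added) when scaled to mitochondrial mRNA, in cells of 5000 to 20000 UMIs and over all barcodes. Over 11 alternatives mt-Atp8 stayed below 1 in all 3 comparisons, with ratios of 0.455 to 0.667 for the control peptide against sham. mt-Nd1 stayed above 1 against sham, at 1.36 to 1.58 for APOE130-149 and at 1.31 to 1.76 for the control peptide library. Counts of 0 for the nuclear lists held under median-of-ratios scaling.

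The level of the 9 genes relative to microglia, in the order APOE130-149, control peptide and sham, moved as follows. With a stricter gate it was 0.668, 0.692 and 0.391 in neutrophils, 1.03 and 0.792 in border-associated macrophages of the control peptide and sham, and 0.992 and 0.869 in monocytes of the control peptide and sham. With a 10% cap it was 0.877 and 1.06 in border-associated macrophages and 0.763 and 0.688 in neutrophils, of both NMOSD libraries, and 0.903, 0.992 and 0.801 in monocytes. Without deep cells it was 1.06, 0.943 and 0.942 in border-associated macrophages, 0.141, 0.285 and 0.498 in neutrophils, and 0.768, 0.808 and 1.16 in monocytes. With at most 3 microglia markers, an alternative chosen after seeing the data, it was 0.136, 0.159 and 0.185 in neutrophils and 1.07, 0.622 and 0.927 in monocytes. The cause of these shifts was not tested. Depth limited mt-Nd6 (5 to 70 UMIs) and mt-Atp8 (10 to 126 UMIs) in the gates other than microglia. With 1 library per group, a difference between groups and a difference between preparations cannot be told apart.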
